A study of Mus musculus with 4 samples.

Results

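Interferon-stimulated genes were examined in Sca-1 cells from failing and healthy mouse hearts. The set holds 43 genes chosen by symbol, 36 of them type I interferon-stimulated genes and 7 of them interferon-gamma inducible GTPases. Every probe set whose annotation holds one of these symbols was taken, including those shared with other genes. This gave 69 of 45037 probe sets for 42 of the 43 genes, and Ifi44 was not analysed here. Of the 69 probe sets, 61 reached an intensity of 50 on 2 arrays or more and were tested, 3 of them shared between genes. For counts of genes only probe sets with 1 symbol were used, which leaves 38 genes tested, 32 of type I and 6 GTPases.

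Cells with the surface protein Sca-1, used to enrich resident progenitors, were sorted magnetically from hearts of FVB mice of either sex at an age of 6 weeks, and RNA was extracted without culture. Cyc cells came from double-transgenic mice with αMHC-CyclinT1/Gαq overexpression and heart failure, and Wt cells from their healthy wildtype littermates. The αMHC promoter drives both transgenes in cardiomyocytes, so the sorted cells are not the cells in which they are meant to be active. For Cyclin T1 and Gαq the paper reports little change of RNA in the sorted cells. A probe set of the Gαq gene was an exception and was significantly higher in Cyc cells. Whether transgene RNA was present in these pools was not tested here. There were 2 independent experiments, and each array held a pool of cells from 2 to 3 mice. The arrays are numbered 1 and 2 within each group. The Cyc and the Wt array of the same number were taken as 1 experiment, which is inferred and not stated by the labels.

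Interferons are secreted proteins that bind cell surface receptors and, through JAK kinases and STAT factors, switch on a large set of genes. Type I interferons act mainly on genes with interferon-stimulated response elements, and these genes encode sensors of foreign nucleic acid and proteins that block viral replication. Among the best known targets of interferon-gamma are the GBP and IRG families of GTPases, which attack the vacuoles of intracellular pathogens. In the heart, such genes are known from viral myocarditis and from the response to tissue injury.

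The promoters of the members show which of them carry the letters that these factors bind. RefSeq promoter sequences (build GRCm38.p6) were at hand for 30 member genes, with 34 promoters of 250 bases before the start. The core of the interferon-stimulated response element, GAAA followed after any 2 bases by another GAAA and called the GAAA repeat here, was searched on both strands. It was found in 14 of the 34 member promoters (41.2%) and in 978 of all 32851 promoters (2.98%). The motif TTCNNNGAA, the core bound by STAT dimers, which reads the same on both strands, was found in 7 of the 34 member promoters (20.6%) and in 2306 of all promoters (7.02%). All 5 GTPases with a promoter held the GAAA repeat, against 9 of 25 type I genes. A match is a description of letters and not of binding.

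The following stretches show the motif in type I genes with higher values in Cyc cells, described below. Isg15, Ifit1, Ifit3 and Oas1a were higher in Cyc cells and Bst2 was so with the experiment as a block. Rsad2, Stat2 and Trim30a, which were not called, and Oas3, which was not tested, held the motif too and are not shown. The choice of stretches therefore does not tie the motif to the rise. Capitals mark the GAAA repeat on either strand, where overlapping matches run together, and each stretch is written in the direction of its gene.
Isg15, chr4:156200855-156200916, minus strand: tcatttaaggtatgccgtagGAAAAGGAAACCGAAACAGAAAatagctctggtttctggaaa
Ifit1, chr19:34640765-34640833, plus strand: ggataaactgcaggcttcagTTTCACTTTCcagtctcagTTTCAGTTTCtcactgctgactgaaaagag
Ifit3, chr19:34583353-34583436, plus strand: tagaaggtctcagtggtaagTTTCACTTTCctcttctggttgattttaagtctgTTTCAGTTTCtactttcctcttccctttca
Oas1a, chr5:120907526-120907565, minus strand: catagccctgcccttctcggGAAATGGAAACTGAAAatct
Bst2, chr8:71537567-71537622, minus strand: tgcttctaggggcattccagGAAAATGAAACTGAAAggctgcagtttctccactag

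Isg15 held 3 overlapping matches, which begin 78 to 66 bases before the start of the gene. Ifit1 and Ifit3, nearby genes on chromosome 19, held 2 separate matches each, at 104 and 85 bases and at 156 and 122 bases before the start. Oas1a and Bst2 held 2 overlapping matches each. Of the 6 type I genes that were higher in Cyc cells and have a promoter here, 3 held the GAAA repeat, and in Irf7, Oasl1 and Oasl2 these letters were not found in this window. Of the 16 type I genes that were tested and not called, 4 held it, namely Bst2, Rsad2, Stat2 and Trim30a.

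For the GTPases the stretches show the same motif, here within 64 bases of the start in all 5 genes, none of which passed the thresholds.
Gbp2, chr3:142620584-142620633, plus strand: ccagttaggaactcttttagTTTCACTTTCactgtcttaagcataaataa
Gbp3, chr3:142559979-142560034, plus strand: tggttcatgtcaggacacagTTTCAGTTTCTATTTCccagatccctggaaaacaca
Igtp, chr11:58199502-58199551, plus strand: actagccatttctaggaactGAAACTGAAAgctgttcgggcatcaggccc
Irgm1, chr11:48871421-48871470, minus strand: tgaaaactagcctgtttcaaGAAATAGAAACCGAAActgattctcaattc
Irgm2, chr11:58214893-58214942, plus strand: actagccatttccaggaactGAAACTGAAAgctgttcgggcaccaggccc

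The stretches of Igtp and Irgm2, nearby genes on chromosome 11, have the same base at 48 of 50 positions. Both genes also held TTCNNNGAA, at 45 and 75 bases before the start, which Gbp2, Gbp3 and Irgm1 did not.

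Affymetrix Mouse 430 2.0 arrays were used, whose probes lie near the 3′ end of most transcripts. The deposited intensities are on a linear scale, and 18460 to 21444 probe sets per array reached 50, below which a value is near background. The log2 fold change (log2FC, Cyc minus Wt) is that of log2(intensity + 16) and understates the change of dim genes, and SE is its standard error and CI its confidence interval. A gene was called when a probe set passed the study's thresholds, at least 2-fold with an unadjusted p below 0.05 (limma). The adjusted p of every member probe set was 1, and with the experiment as a block the smallest was 0.591, so all calls fail correction for multiple tests. An exact permutation test of 2 pools against 2 cannot go below 0.333. The p-values measure only the spread between these pools, and with 4 arrays the precision is low. The Cyc pool of experiment 2 stood apart in markers of airway epithelium, macrophages, B cells and leukocytes in general. Their values follow the results, and counts are also given without this pool.

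Of the 32 type I genes tested, 11 rose in Cyc cells, none fell and 21 did not pass. Dhx58 and Zbp1 are among the 11 although their Wt pools lay below 50, and with a filter at 100 the other 9 were called. Over all 10315 genes tested, 1.12% were called higher and 0.194% lower. The 11 genes were Irf7, Dhx58, Zbp1, Usp18, Ifit1, Ifit3, Oasl1, Oasl2, Oas1a, Mx2 and Rtp4, with log2FC from 1.01 to 1.96. In 20 of the 32 genes both Cyc pools exceeded both Wt pools, a pattern seen in 18.5% of all genes. The median log2FC of the 32 genes was 0.57, against 0.02 over all genes tested. With the experiment as a block 12 member genes were called higher, the 11 genes and Bst2, where the share over all genes was 1.41%, and none was lower, against 0.368%. Without the Cyc pool of experiment 2 the number of member genes called higher was 3, where 92 of all 10315 genes were, and Samhd1 was called lower, where 572 of all genes were.

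**Figure D1:**
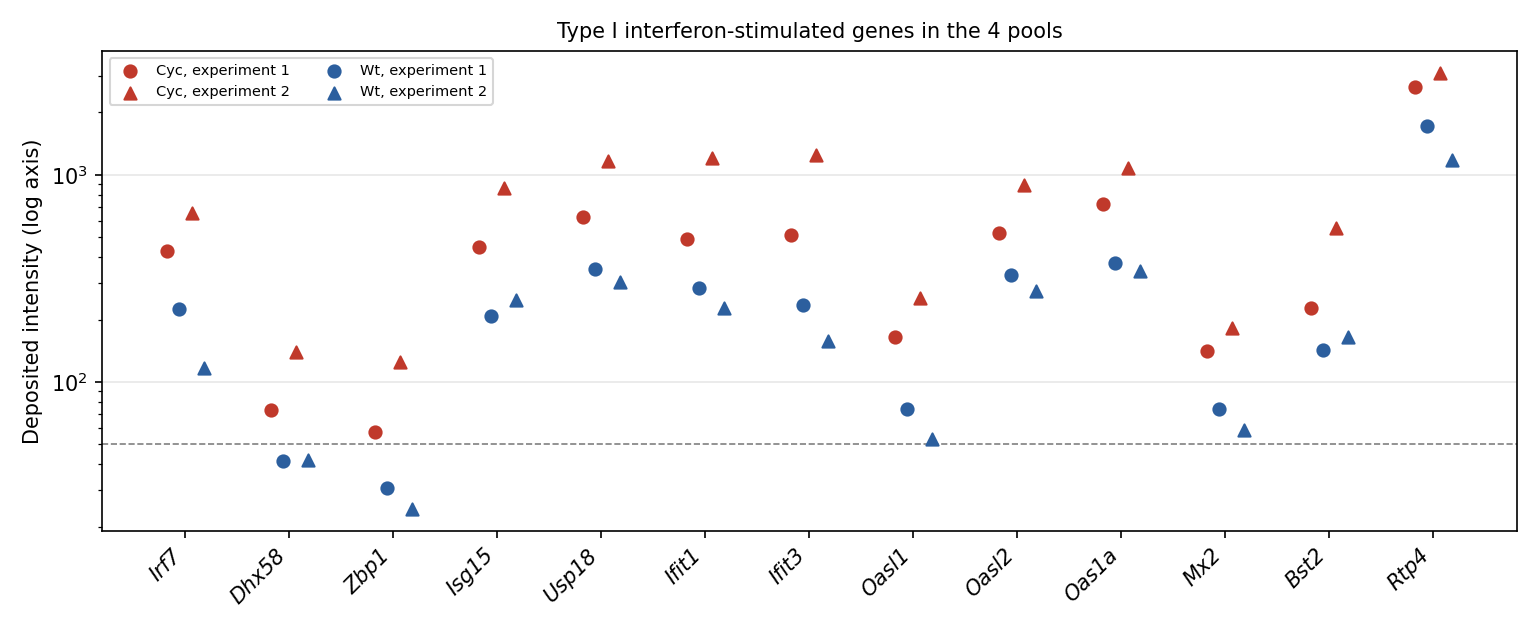
Deposited intensity (log axis) of the 11 type I genes called higher in Cyc cells, of Isg15, read by a shared probe set, and of Bst2, called with the experiment as a block. Each point is 1 pool, circles are experiment 1, triangles experiment 2, and the dashed line marks 50. Both Cyc pools lie above both Wt pools in every gene shown, and the Cyc pool of experiment 2 is the highest.

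Among the regulators and sensors, 3 of 9 genes rose, where 1.12% of all genes did, and the median log2FC of the 9 was 0.51. Irf7, the transcription factor that amplifies type I interferon production, read 429.1 and 653.6 in the Cyc pools of experiments 1 and 2, against 224.1 and 116.3 in the Wt pools. Both Cyc pools were above both Wt pools, and the log2FC was 1.61 (limma, SE 0.41, 95% CI 0.55 to 2.68). Dhx58, which encodes the RNA sensor LGP2, was at 73.4 and 140.2 in Cyc against 41.5 and 42.1 in Wt cells, at least 2.03-fold higher. Zbp1, a sensor of Z-form nucleic acid, was at 57.3 and 124.6 in Cyc against 30.8 and 24.4 in Wt cells, at least 1.69-fold higher. Dhx58 and Zbp1 entered the test through their Cyc pools alone, since both Wt pools lay below 50, and these bounds are the geometric mean of the Cyc pools over 50.

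The other 6 regulators and sensors did not pass. Irf9 and Stat2, transcription factors of the type I response, had log2FC of 0.24 (95% CI -0.61 to 1.10) and 0.21. The intensities of Irf9 were 554.6 and 933.2 in Cyc against 616.7 and 596.7 in Wt cells, so the groups overlapped. Trim25, a ubiquitin ligase that activates RIG-I, was at 2151.4 and 3209.0 in Cyc against 2877.2 and 3063.2 in Wt cells. Its log2FC was -0.17, and none of its 3 probe sets had a log2FC above 0. Ifi35, an interferon-induced protein with a leucine zipper, was at 3245.7 and 3890.2 in Cyc against 2699.1 and 2429.7 in Wt cells, higher in both Cyc pools with a log2FC of 0.47 (SE 0.24). Ifih1, the RNA sensor MDA5, and Trim30a had log2FC of 0.63 and 0.51.

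ISG15 is a ubiquitin-like protein that is attached to other proteins, and USP18 removes it and dampens signaling at the type I receptor. Isg15 read 450.0 and 866.3 in the Cyc pools against 208.7 and 248.2 in the Wt pools, at a probe set that also reads Gm9706. Both Cyc pools were above both Wt pools, and its log2FC was 1.40 (SE 0.38, 95% CI 0.40 to 2.39). It passed both thresholds, as 0.735% of all probe sets did upward, but is not counted among the 11 genes, since the share of Gm9706 in this signal is not known. Usp18 was at 624.0 and 1163.3 in Cyc against 350.2 and 304.4 in Wt cells, again without overlap, with a log2FC of 1.34 (SE 0.37, 95% CI 0.38 to 2.31). Parp9, Parp14 and Dtx3l, which act in ADP-ribosylation and ubiquitination, did not pass, with log2FC from 0.15 to 0.27. Parp14 was at 839.7 and 1793.7 in Cyc against 1052.4 and 1168.1 in Wt cells, both within the range of the Cyc pools.

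The antiviral effectors held most of the calls, with 6 of 14 tested genes higher in Cyc cells, where 1.12% of all genes were. Their median log2FC was 1.01. In 10 of the 14 both Cyc pools exceeded both Wt pools, as in 18.5% of all genes. IFIT proteins bind foreign RNA and block its translation. Ifit3 had intensities of 511.6 and 1250.0 in Cyc against 236.0 and 158.2 in Wt cells, and its log2FC of 1.96 (SE 0.50, 95% CI 0.65 to 3.27) was the largest of the 32 type I genes. Ifit1 was at 490.9 and 1199.2 in Cyc against 283.7 and 227.3 in Wt cells, with a log2FC of 1.54 (SE 0.48). Both genes carry the motif 2 times in the stretches above. Ifit2 was at 1053.8 and 2546.8 in Cyc against 793.2 and 952.5 in Wt cells, a log2FC of 0.90 that did not pass (95% CI -0.34 to 2.15).

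Oligoadenylate synthetases make the messenger that activates RNase L, and the OASL proteins are related to them. Oasl1 was at 165.0 and 253.3 in Cyc against 73.9 and 53.0 in Wt cells, with a log2FC of 1.49 (SE 0.31, 95% CI 0.66 to 2.31). Oas1a was at 719.4 and 1082.1 in Cyc against 375.2 and 343.1 in Wt cells, with a log2FC of 1.26 (SE 0.29, 95% CI 0.49 to 2.03). Oasl2 was at 525.4 and 892.4 in Cyc against 328.8 and 276.1 in Wt cells, with a log2FC of 1.14 (SE 0.34). In these 3 genes the groups did not overlap, and the Cyc pool of experiment 2 was the highest. In Oas2 the groups overlapped, at 510.7 and 1177.0 in Cyc against 545.5 and 520.1 in Wt cells, with the Cyc pool of experiment 1 the lowest of the 4. Oas3 lay below 0 in all pools and was not tested.

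Mx2, a dynamin-like GTPase of the antiviral Mx family, was at 141.1 and 182.6 in Cyc against 73.7 and 58.5 in Wt cells, with a log2FC of 1.11 (SE 0.26). Mx1 lay below 50 in all pools and was not tested. Bst2, or tetherin, which holds budding virus at the cell surface, was at 226.3 and 554.6 in Cyc against 143.1 and 164.9 in Wt cells. Its log2FC of 1.13 missed the threshold in the unblocked fit (95% CI -0.09 to 2.35) although the groups did not overlap. Cmpk2, a mitochondrial nucleotide kinase, was at 842.6 and 1253.9 in Cyc against 612.2 and 569.6 in Wt cells, a log2FC of 0.78 that was under the fold threshold. Ifitm3, which blocks viral entry, was at 12145.7 and 10955.1 in Cyc against 10495.8 and 8279.6 in Wt cells, with a log2FC of 0.31.

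A few effectors lay close to 0. Rsad2, or viperin, a radical SAM enzyme that blocks the replication of many viruses, was at 1780.0 and 2674.8 in Cyc against 1930.4 and 1727.8 in Wt cells, a log2FC of 0.25 (SE 0.30) with groups that overlapped. Eif2ak2, the kinase PKR that stops translation when it binds double-stranded RNA, had a log2FC of 0.14 (SE 0.40). Samhd1, which depletes nucleotides, was at 406.7 and 701.4 in Cyc against 588.8 and 634.0 in Wt cells, a log2FC of -0.19 and the lowest of the 32 genes.

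Of the other type I genes, Rtp4 rose and 4 did not pass, where 1.12% of all genes were called higher. Rtp4, a chaperone of membrane receptors, was at 2656.2 and 3106.0 in Cyc against 1717.8 and 1176.4 in Wt cells, with a log2FC of 1.01 (SE 0.29, 95% CI 0.24 to 1.77). Lgals3bp, a secreted glycoprotein that binds galectins, was at 1637.6 and 1731.6 in Cyc against 1146.3 and 1060.5 in Wt cells, and its log2FC of 0.60 had a 95% CI from 0.01 to 1.19. Xaf1, which promotes apoptosis, was at 2446.5 and 2243.2 in Cyc against 1818.4 and 1426.6 in Wt cells, with a log2FC of 0.54. The Cyc pools of Rtp4, Lgals3bp and Xaf1 lay above both Wt pools. Ifi27, a small mitochondrial protein, was at 1946.5 and 1497.7 in Cyc against 1888.9 and 1628.4 in Wt cells, a log2FC of -0.04.

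The 2 probe sets of Ifi204, a DNA binding protein of the p200 family, disagreed. At the one with this symbol alone the intensities were 55.6 and 84.6 in Cyc against 55.2 and 33.8 in Wt cells, a log2FC of 0.51. At the one shared with Mndal, Ifi211 and Ifi205 they were 52.2 and 87.2 in Cyc against 248.9 and 172.1 in Wt cells, and this signal fell, with a log2FC of -1.41 (SE 0.34). It was the one member probe set called lower in Cyc cells, where 0.116% of all probe sets were, and the share of each of the 4 genes in this signal cannot be told apart. A probe set annotated to Ifi211 and Ifi205 without Ifi204 had much the same pattern, at 80.6 and 135.6 in Cyc against 353.8 and 259.6 in Wt cells, with a log2FC of -1.40 for Ifi205 (SE 0.34).

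The interferon-gamma inducible GTPases gave no call in either direction among the 6 tested, also with the experiment as a block. Over all genes 1.12% were called higher and 0.194% lower, and with the block 1.41% and 0.368%. The lack of a call among 6 genes therefore does not set them apart. The median log2FC of the 6 GTPases was 0.30. Gbp4 is read only by a probe set shared with Gbp8, which lay below 0. Iigp1, of the IRG family, was at 1760.6 and 4001.2 in Cyc against 3080.0 and 1907.2 in Wt cells, with a log2FC of 0.13 (95% CI -1.17 to 1.43). Gbp2 was at 1886.4 and 2975.4 in Cyc against 2477.5 and 2010.0 in Wt cells, with a log2FC of 0.09 (95% CI -0.76 to 0.93). In both genes the Cyc pools were the lowest and the highest of the 4, with both Wt pools between them.

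Igtp, or IRGM3, was at 994.0 and 1754.4 in Cyc against 1335.6 and 719.6 in Wt cells, with a log2FC of 0.42 (95% CI -0.75 to 1.60). Irgm2 was at 477.5 and 1198.3 in Cyc against 698.3 and 622.3 in Wt cells, with a log2FC of 0.20 (95% CI -1.07 to 1.46). In both the Cyc pool of experiment 2 was highest, and in Irgm2 the Cyc pool of experiment 1 was the lowest. Gbp3 was at 1068.6 and 2352.2 in Cyc against 1030.7 and 1098.9 in Wt cells, with a log2FC of 0.57 (95% CI -0.56 to 1.70). Irgm1, a regulator of the other IRG proteins, was at 724.3 and 1125.4 in Cyc against 705.8 and 656.8 in Wt cells, with a log2FC of 0.40 (95% CI -0.39 to 1.19). It was the 1 GTPase of the 6 without overlap, where both Cyc pools exceeded both Wt pools in 18.5% of all genes. The intervals of all but Gbp2 still hold a 2-fold rise, and those of Iigp1 and Irgm2 a 2-fold fall as well.

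**Figure D2:**
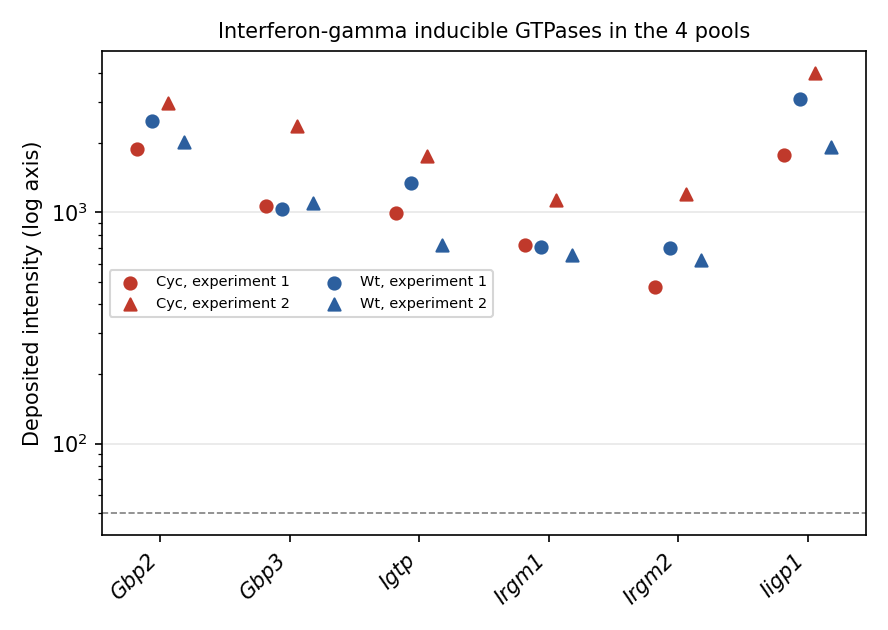
Deposited intensity (log axis) of the 6 interferon-gamma inducible GTPases tested. Each point is 1 pool, circles are experiment 1, triangles experiment 2, and the dashed line marks 50. The Cyc pool of experiment 2 is the highest in all 6, while that of experiment 1 lies below its Wt pool in 4.

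The difference between Cyc and Wt cells was larger in experiment 2 than in experiment 1 in all but Ifi27 of the 38 genes. The share of all genes with this order was not counted, and their medians, given below, lean the same way. The Cyc minus Wt difference of the 6 GTPases ran from -0.80 to 0.05 on the log2 scale in experiment 1 and from 0.56 to 1.27 in experiment 2, with medians of -0.41 and 1.0. In Gbp2, Igtp, Irgm2 and Iigp1 it was below 0 in experiment 1 and above 0 in experiment 2, a pattern found in 29.7% of all genes. For the 32 type I genes the medians were 0.40 and 0.94, against -0.04 and 0.07 over all genes. The difference was above 0 in both experiments in 22 of the 32, where 30.8% of all genes were. In 9 of the 32 it turned from below 0 in experiment 1, by at most 0.52, to above 0 in experiment 2. These were Irf9, Stat2, Trim25, Parp14, Dtx3l, Oas2, Rsad2, Eif2ak2 and Samhd1, none of which was called. With 1 pool against 1 these differences have no test.

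The 11 type I genes called were higher in Cyc cells in both experiments. They were chosen by their difference over these same pools, so this is no independent agreement of the experiments. Their log2 differences ran from 0.62 (Rtp4) to 1.07 (Ifit3) in experiment 1 and from 1.39 (Rtp4) to 2.86 (Ifit3) in experiment 2, and each of the 11 had the larger one in experiment 2. The Cyc pool of experiment 2 was the highest of the 4 in 29 of the 32 type I genes, against 45.5% of all genes. Ifitm3, Xaf1 and Ifi27 were the exceptions, each with its highest intensity in the Cyc pool of experiment 1. Without the Cyc pool of experiment 2 the member genes called higher were Irf7, Ifit3 and Oasl1, and without the Wt pool of experiment 2 they were Ifit3 and Oasl1, where 98 of all 10315 genes were called higher. Without the Cyc pool of experiment 1 there were 18, among them the GTPase Gbp3, but calls over all genes increased too, from 116 to 401, and the median log2FC of all tested probe sets moved from -0.02 to 0.18.

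**Figure D3:**
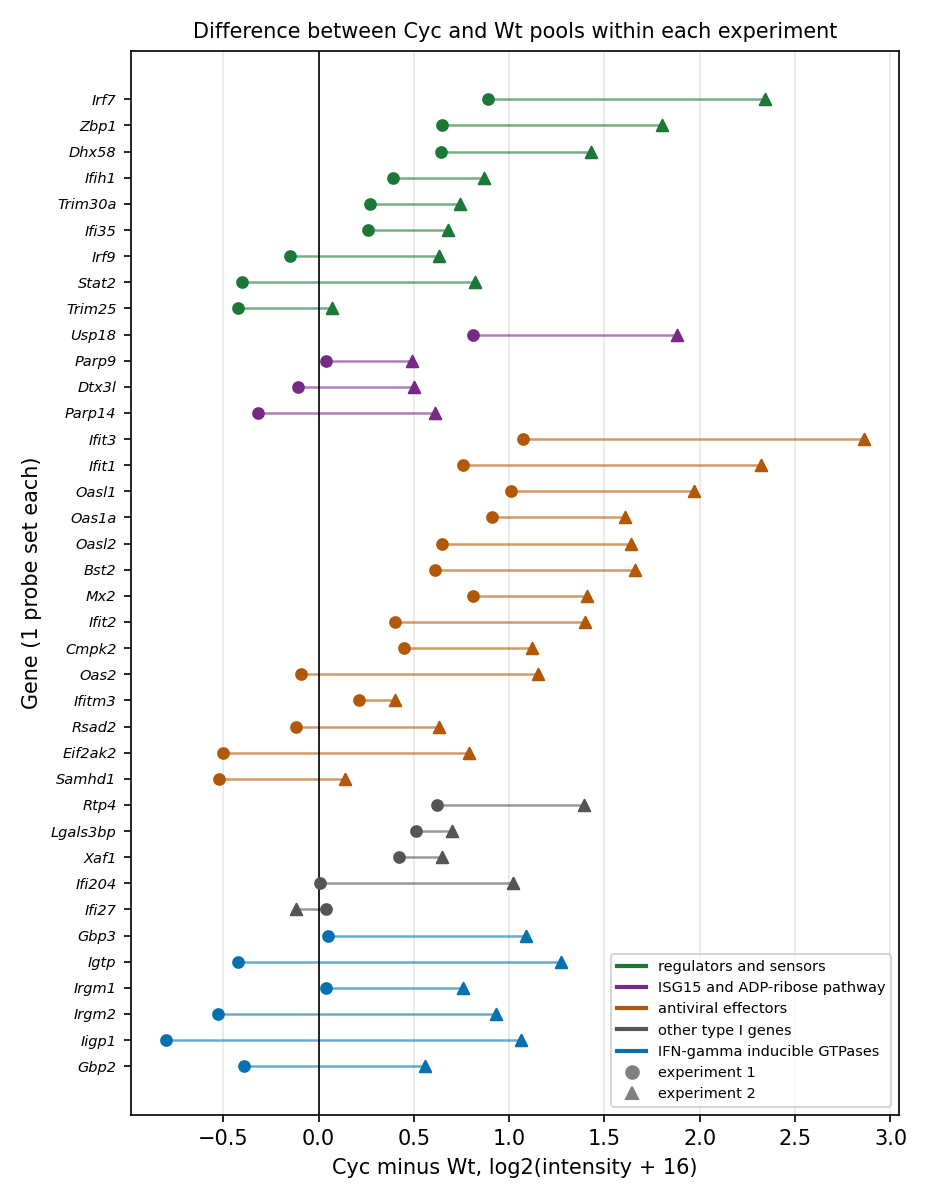
Cyc minus Wt difference of log2(intensity + 16) within experiment 1 (circles) and experiment 2 (triangles) for the 38 genes tested, coloured by role and joined by a line. Except for Ifi27 every triangle lies to the right of its circle, and in 4 GTPases and 9 type I genes the circle lies below 0 and the triangle above it.

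The genes upstream of the members showed no call. Of 27 genes of interferon ligands, receptors and signaling, 18 were tested and none passed. Over all genes 1.12% were called higher and 0.194% lower. The median log2FC of the 18 was -0.03. The ligands Ifnb1, Ifng, Ifna2 and Ifna4 were at 19.2 or less in all pools, near background. Ifnar1 and Ifnar2, the chains of the type I receptor, had log2FC of 0.01 (95% CI -0.74 to 0.76) and 0.21 (-0.36 to 0.79). At another probe set of Ifnar1 both Cyc pools lay below both Wt pools, at 79.7 and 146.4 against 178.2 and 182.0, with a log2FC of -0.65 (95% CI -1.53 to 0.22) that did not pass. Those of the interferon-gamma receptor genes Ifngr1 and Ifngr2 were 0.31 and 0.35, and those of the kinase genes Jak1, Jak2 and Tyk2 were -0.15, -0.09 and 0.00. Irf8, a transcription factor of myeloid cells, had the largest of the 18, at 112.1 and 186.6 in Cyc against 81.0 and 71.9 in Wt cells (log2FC 0.80, 95% CI -0.02 to 1.62).

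Beyond the members, 30 genes of a further list of 38 interferon-inducible genes were tested, with a median of 0.26. Of these 2 rose and none fell, where 1.12% and 0.194% of all genes were called higher and lower. Ifi27l2a, a relative of Ifi27, was at 1538.5 and 1937.3 in Cyc against 775.1 and 382.1 in Wt cells, a log2FC of 1.63 (SE 0.41). Ccl5, a chemokine made by T and NK cells, was at 97.3 and 215.7 in Cyc against 45.6 and 11.9 in Wt cells, at least 2.90-fold higher. It entered the test through its Cyc pools alone, and with a filter at 100 only 1 gene of this list was called. Ifi205 has no probe set of its own here and is not among the 30, and both probe sets it shares were called lower. The difference of the 30 genes was above 0 in 16 in experiment 1 and in 29 in experiment 2, the same order of experiments as in the members. It was above 0 in both experiments in 16, where 30.8% of all genes were. Its medians were 0.01 and 0.57, against -0.04 and 0.07 over all genes.

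Markers of other cells were also read, and their sums differed between the pools. The summed intensity of 10 macrophage markers was 686 and 1810 in the Cyc pools of experiments 1 and 2 and 609 and 331 in the Wt pools. Of the macrophage markers 2 of 6 tested, Ctss and Tyrobp, were called higher. So were Gzma, 1 of 2 tested for T and NK cells, and Itgb2, 1 of 4 for leukocytes, against 1.12% of all genes. All of these but Ctss entered the test through their Cyc pools alone. The other macrophage markers tested, Csf1r, Adgre1, Lyz2 and Cd14, were not above Wt in experiment 1. The median log2 difference of the 6 was -0.07 in experiment 1 and 2.33 in experiment 2. The sum of 4 general leukocyte markers was 311 and 789 in Cyc and 259 and 365 in Wt cells. That of 7 measured T and NK cell markers was 243 and 391 against 126 and 187. Of these 7, 4 lay below 50 in all pools. That of 3 measured B cell markers was 73.0 and 249 against 59.4 and 47.3. None of these 3 reached 50 outside the Cyc pool of experiment 2. For each of these lists the Cyc pool of experiment 2 was the highest, as in most members. The sum of 3 measured neutrophil markers was 90.5 and 29.7 in Cyc against 96.2 and 26.9 in Wt cells. Of these 3, 2 lay below 50 in all pools, and S100a8 reached 50 only in the Wt pool of experiment 1, at 53.3. The neutrophil sums are therefore near background and show no order of the pools. Plasmacytoid dendritic cells are known as a major source of type I interferon. The sums of their 5 markers were 317 and 359 in Cyc against 335 and 289 in Wt cells. Siglech and Ccr9 lay below 50 in all pools, and Klk1 at 1 probe set and Cox6a2 made up most of each sum. Klk1 was there at 138.1 and 117.9 in Cyc against 101.9 and 101.5 in Wt cells, and below 50 at its others. Cox6a2 was at 103.0 and 106.0 against 174.0 and 115.8. These sums therefore do not show whether such cells were present. The part of all these leukocytes in the values of the members was not tested. In such pools more cells of a type and more RNA per cell cannot be told apart.

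Endothelial and fibroblast markers were read in all pools. The 7 measured endothelial markers summed to 50288 and 53973 in Cyc and 56340 and 56183 in Wt cells, and the 7 fibroblast markers to 30634 and 31109 in Cyc and 32999 and 20924 in Wt cells. Of the fibroblast markers Col1a1 was called higher, where 1.12% of all genes were, with a log2FC of 1.16 (SE 0.40) at 1 of its 2 probe sets. Ly6a, the gene of Sca-1, was not analysed here. The pools also differed in 5 markers of airway and alveolar epithelium, at 233 and 16072 in Cyc and 2553 and 102 in Wt cells, so that the Cyc pool of experiment 2 stood apart here too. The 6 cardiomyocyte markers summed to 1914 and 1327 in Cyc and 3117 and 1855 in Wt cells. Of these 6, Myl2 and Mb were called lower, where 0.194% of all genes were, with log2FC of -1.15 and -1.11. The part of these cells in the values of the members was not tested.

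**Figure D4:**
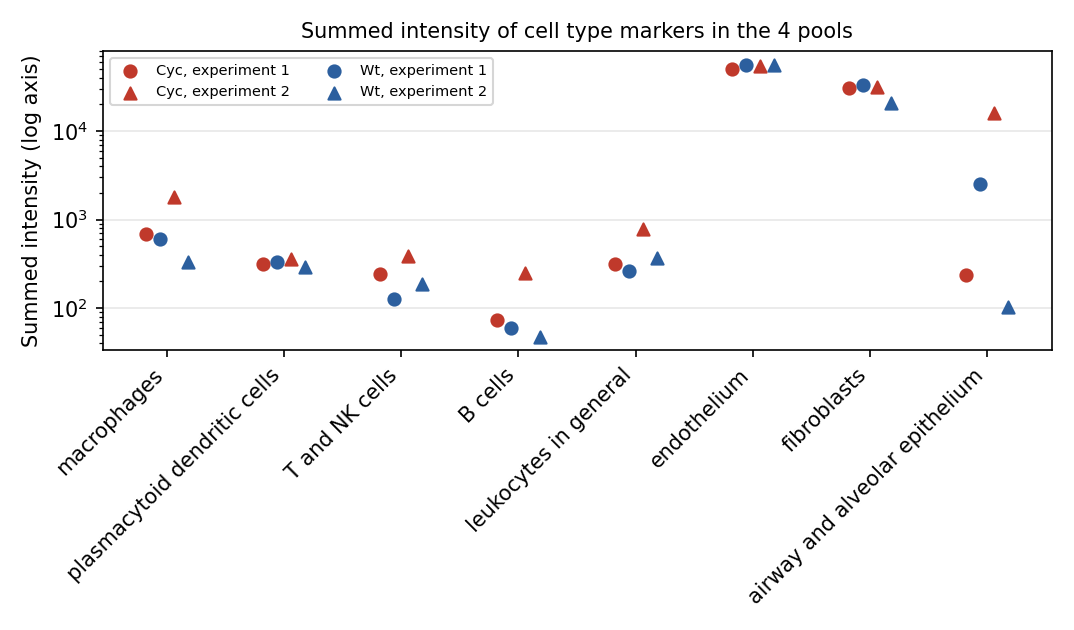
Summed intensity (log axis) of marker genes of 8 cell types in the 4 pools, 1 probe set per gene. Circles are experiment 1, triangles experiment 2. The macrophage, T and NK cell, B cell, leukocyte and airway sums are highest in the Cyc pool of experiment 2, and the endothelial sums differ little.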

How the data were processed

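Affymetrix Mouse 430 2.0 arrays of 2 Cyc and 2 Wt pools were used. The deposited intensity values were normalized by the authors in Resolver 7.2; the background correction and summary method are not given in the sources used here. The values range from -517 to 19512, with 5784 to 7231 per array below 0. These were set to 0, 16 was added and log2 taken, without further normalization. The 20680 probe sets at 50 or more on at least 2 arrays entered the fit of limma 3.58.1 (R 4.3.3, 2 residual and 2.68 prior degrees of freedom), with adjustment after Benjamini and Hochberg. The Resolver error model was not run. In lists a gene stands by its brightest probe set with 1 symbol, and a gene is called by any such probe set. Of all probe sets, 34945 had 1 symbol, 932 several and 9160 none in the platform annotation, which can be old.

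The study gives 2 independent experiments, and the labels number the arrays within each group. That arrays of the same number belong to the same experiment was inferred. Arrays of the same number deviated together from the mean of their group (correlation 0.447), and poly-A controls, added before labelling, had medians of 238.1 and 214.3 (Cyc and Wt) in replicate 1 and of 1.3 and 0.9 in replicate 2. The replicate number was therefore also fitted as a block (1 residual and 4.44 prior degrees of freedom). All members with a call in either fit and the brightest of each role were named. Members, lists and tests were chosen with earlier results of these data known. The procedure was tested on simulated data. Alternatives were pseudocounts of 1 and 50, no filter, a filter at 100, quantile normalization, scaling to a common median, the block, a t-test without moderation, counting shared probe sets, and leaving out each array.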

Additional observations from a re-analysis of the deposited data

How the results depend on the processing

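With the replicate block, 12 member genes were higher instead of 11, Bst2 being added; the block changed no other call of a member gene. Quantile normalization, scaling and, chosen after seeing the data, the block with quantile normalization also gave 12. The number of member genes higher, all of type I, was 7 with a pseudocount of 50, 7 without a filter, 9 with a filter at 100 and 2 (Oasl1 and Mx2) with the t-test without moderation. Leaving out 1 array gave 2 to 18 member genes higher (type I 2 to 17), 0 to 1 lower and 0 to 1 GTPase called, and 0 to 1 signaling gene. Counting shared probe sets gave 12 higher (Isg15 added) and 1 lower. The median of the type I genes ran from 0.36 to 1.05 without 1 array, and that of the GTPases, 0.30, was reversed to -0.12 without Cyc replicate 2 and reached 0.77 without Cyc replicate 1. The 2 further interferon-inducible genes were 1 without a filter, 1 with the filter at 100, 0 with the t-test and 0 to 5 without 1 array. Oasl1 was called under all 12 refits planned. Leaving out an array mixes genotype with experiment, and the cause of these changes was not tested. Over the whole array, the 152 probe sets higher were 93 with a pseudocount of 50 and 47 with the t-test, and the 24 lower were 46 with a pseudocount of 1, 37 without a filter, 37 with scaling, 47 with the block, 49 with the block and quantile normalization and 7 with the t-test. Without 1 array there were up to 581 higher (without Cyc replicate 1) and up to 1050 lower (without Cyc replicate 2).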
